A study of Homo sapiens with 6 samples.

Results

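The genes described here make, lengthen and desaturate fatty acids, and were chosen by name: SREBF1, ACLY, ACACA, FASN, SCD, FADS1, FADS2, ELOVL5, ELOVL6 and ACSL3. All 10 were found among the 60683 rows of the count table, and all 10 were among the 15846 genes abundant enough to test. The RNA came from 143B cells, a human osteosarcoma cell line. There were 3 libraries from cells given TPBC-PEG for 24 h and 3 from cells given PBS for 24 h, with the same line and medium in both groups. The series title and design tie TPBC-PEG to photodynamic therapy, in which light turns a compound into a source of reactive oxygen species, but no sample label mentions light. Its dose is 3 µM in the sample titles and 300 µM in the treatment protocol, so the dose is not settled. Whether replicates came from separate cultures is not stated, and the p-values therefore reflect only variation among these libraries, which could be technical. In bulk RNA a lower share of cells that use a gene and less RNA of it per cell cannot be told apart.

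Cells build fatty acids in the cytosol from acetyl-CoA. ACLY makes acetyl-CoA from citrate, ACACA (acetyl-CoA carboxylase) turns it into malonyl-CoA, and FASN (fatty acid synthase) joins these units into palmitate. ELOVL6 lengthens palmitate to stearate, and SCD puts the first double bond into saturated chains to make palmitoleate and oleate. FADS2 and FADS1 desaturate polyunsaturated chains and ELOVL5 lengthens them between those steps, on the way to arachidonic acid. ACSL3 joins fatty acids to coenzyme A at the endoplasmic reticulum and lipid droplets, so that they can enter lipids. SREBF1 encodes SREBP-1, a transcription factor held in the endoplasmic reticulum membrane until sterol and lipid supply falls, and known to activate most of the other genes named here.

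After TPBC-PEG the mRNA of the desaturases SCD, FADS1 and FADS2 and of the elongase ELOVL6 was higher, and the mRNA of the regulator SREBF1 and of the synthesis enzymes ACLY and FASN was lower. The changes were modest: the largest were 1.37-fold for FADS1 and 0.803-fold for SREBF1. ACACA, also of synthesis, ELOVL5 and ACSL3 did not pass the test. With the call set at 0.05 after Benjamini-Hochberg adjustment over the whole table (edgeR), 4 of the 10 genes were higher and 3 lower. Of all 15846 genes tested, 16.2% were higher and 16.9% lower, 33.2% in all. Abundant genes were called more often, and among the 6092 genes at or above the level of SREBF1, the least abundant of the 10 on the CPM scale averaged over libraries, 51.9% were called, 20.0% higher and 31.9% lower. Among the 1585 most abundant genes tested, which include ACLY, FASN, SCD, ELOVL5 and FADS1, 16.7% were higher and 45.5% lower, and the median log2 fold change was -0.079. The ACLY and FASN calls were both lost with library totals alone and with the trend on level removed. The median log2 fold change of the 10 was 0.012, against 0.011 over all genes tested.

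The 6 libraries held between 15726323 and 20486584 counts, and the 10 genes had between 466 and 9516 counts each per library. Pearson's r of log2 CPM (counts scaled to a common library size) across genes was 0.992 to 0.993 within groups and 0.985 to 0.988 between groups. The share of counts from the mitochondrial chromosome was 5.55% to 5.77% in the TPBC-PEG libraries and 6.32% to 7.25% in the PBS libraries, and its part in the results below was not tested. As a check of cell identity, VIM stood at 2344.4 CPM with TPBC-PEG and 2577.3 CPM with PBS and CD44 at 560.1 CPM with TPBC-PEG and 659.3 CPM with PBS, while THY1, also on the mesenchymal list, was too low to test. Of the 7 tested genes of that list of 8, 1 rose and 5 fell: RUNX2 rose by 0.55 on the log2 scale, and ENG and COL1A1 fell by 0.59 and 0.48. By comparison, 16.2% of all genes tested were higher and 16.9% lower. Among the 1585 most abundant, which include VIM, SPARC and CD44 of this list, 45.5% were lower. With the trend of fold change with expression level removed, 3 of the 7 were lower. Loss of mesenchymal identity was not tested. Of 7 markers of other lineages 3 were tested and 1 was lower. This was the epithelial keratin KRT18, at 568.1 CPM with TPBC-PEG and 762.4 CPM with PBS. KRT18, a marker of another lineage, thus stood above CD44 in every PBS library. With TPBC-PEG, KRT18 had 558.69, 542.49 and 603.2 CPM and CD44 had 570.15, 555.12 and 555.1 CPM. There KRT18 stood above CD44 only in replicate 3. COL1A1 stood at 19.7 CPM with TPBC-PEG and 27.4 CPM with PBS. EPCAM stood at 17.0 CPM with TPBC-PEG and 16.1 CPM with PBS. ADIPOQ and LEP, which define fat cells, had no counts in any library, and PLIN1, PLIN4 and CIDEC were below 0.2 CPM in both groups. PPARG, the adipocyte regulator that other cells also express, rose to 27.3 CPM in TPBC-PEG, against 18.2 CPM in PBS. It was 1 of 2 tested genes on an adipocyte list of 7. The other, FABP4, stood lower, at 1.11 CPM with TPBC-PEG and 1.34 CPM with PBS, and did not pass (edgeR, adjusted p = 0.552).

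Letters from the 250 bases before start sites are shown for the genes that changed and have a RefSeq promoter entry in GRCh38.p14. Several of these genes share regulators that bind in this region. Windows began 250 bases before the start, and only the longest stretch free of exons in GENCODE release 29 is printed, 5′ to 3′ on the gene's own strand. The printed stretches therefore end 110 (SCD), 195 (FADS1), 149 (FADS2), 62 (ELOVL6), 17 (SREBF1) and 1 (ACLY) bases before the start. GC boxes of SCD that begin 33 and 11 bases before its start lie in an annotated exon and are not printed. Capitals mark GC boxes (GGGCGG or CCGCCC) and NF-Y boxes (CCAAT or ATTGG), found by letters alone. For FADS2 the window before the start at 61816404 is printed. The FADS2 window before the start at 61816203, which held none of the motifs searched, is not. For ACLY the window before the start at 41919022 is printed, and an overlapping window before 41918951 is not.
SCD, chr10:100346983-100347123, plus strand: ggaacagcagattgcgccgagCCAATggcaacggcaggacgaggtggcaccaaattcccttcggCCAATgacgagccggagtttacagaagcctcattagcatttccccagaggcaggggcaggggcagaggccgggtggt
FADS1, chr11:61817198-61817253, minus strand: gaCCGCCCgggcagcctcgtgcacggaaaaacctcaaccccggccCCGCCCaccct
FADS2, chr11:61816154-61816255, plus strand: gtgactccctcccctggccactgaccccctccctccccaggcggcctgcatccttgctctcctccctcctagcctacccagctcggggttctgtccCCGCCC
ELOVL6, chr4:110198677-110198841, minus strand: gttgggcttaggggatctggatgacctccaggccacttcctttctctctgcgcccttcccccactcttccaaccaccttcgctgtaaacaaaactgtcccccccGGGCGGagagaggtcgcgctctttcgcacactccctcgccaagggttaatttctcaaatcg
SREBF1, chr17:17837003-17837236, minus strand: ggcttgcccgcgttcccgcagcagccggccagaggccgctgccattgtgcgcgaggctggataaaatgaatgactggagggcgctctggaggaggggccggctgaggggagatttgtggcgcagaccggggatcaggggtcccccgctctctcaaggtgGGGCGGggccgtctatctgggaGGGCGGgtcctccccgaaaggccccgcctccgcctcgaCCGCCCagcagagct
ACLY, chr17:41919023-41919272, minus strand: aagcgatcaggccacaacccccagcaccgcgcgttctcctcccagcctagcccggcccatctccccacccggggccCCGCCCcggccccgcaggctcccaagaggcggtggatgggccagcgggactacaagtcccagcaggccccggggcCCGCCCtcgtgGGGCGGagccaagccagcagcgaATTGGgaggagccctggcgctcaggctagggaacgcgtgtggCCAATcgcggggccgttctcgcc

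FADS1 and FADS2 lie on opposite strands of chromosome 11 and their transcripts start toward each other. The FADS1 start at 61817003 lies 800 and 599 bases to the right of the FADS2 starts at 61816203 and 61816404, so their first parts overlap, and 490 exonic bases are shared. Of the 10 genes, 9 had a promoter entry, and the motifs were searched in the full 250 bases before each start on both strands. Some genes have several windows, and the 9 have 13. The ACLY windows overlap, as do the FADS2 windows, so the same boxes of ACLY count in both of its windows. The comparison below covers all 27305 genes with an entry, whether or not they were tested here. A GC box stood in 10 of these 13 windows, against 42.6% of the 35116 windows of the whole table, and in at least 1 window of 8 of the 9 genes, all but ELOVL5, against 46.2% of all genes. An NF-Y box stood in 7 of the 13 windows, against 32% of all windows, and in 5 of the 9 genes (ACLY, ACACA, SCD, ELOVL5 and ACSL3), against 37% of all genes. The E-box CACGTG was found for ELOVL5 and in 6.34% of all windows. The sterol regulatory element core TCACNCCAC, present in 0.883% of all windows, and the amino acid response core TGATGNAA, present in 3.14%, matched no window of these genes. A missing match says only that these letters are not in the window, and genes with an NF-Y box were found among those that rose, fell and did not pass.

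**Figure D1:**
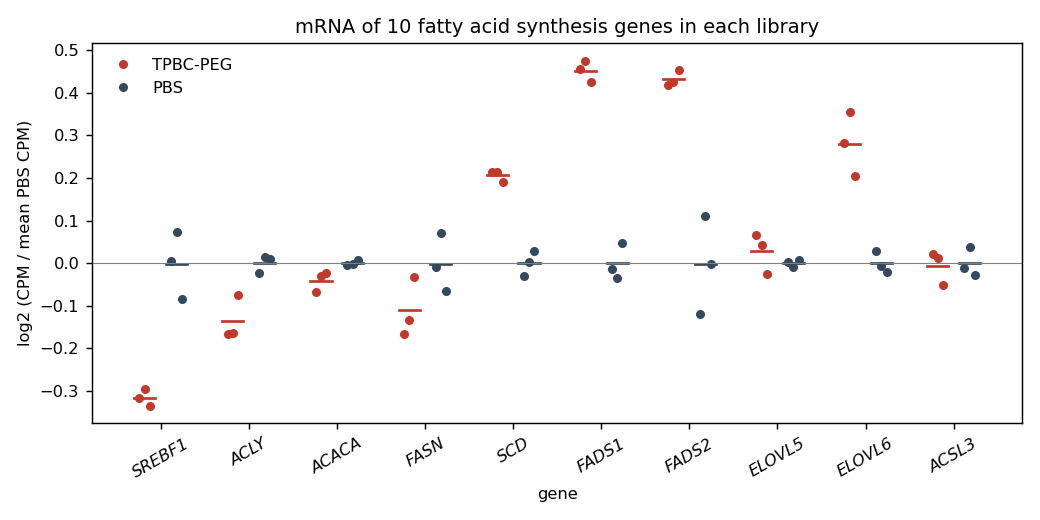
Each point is a library, as log2 of its TMM-scaled CPM over the mean PBS CPM of that gene, and short lines are group means (n = 3 each). The TPBC-PEG points of SCD, FADS1, FADS2 and ELOVL6 lie above all PBS points, those of SREBF1, ACLY and ACACA lie below them, and those of FASN, ELOVL5 and ACSL3 overlap them.

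SREBF1, the regulator (chromosome 17, 17810399 to 17837002, minus strand), had 29.6, 30.04 and 29.2 CPM in the TPBC-PEG libraries, against 37.0, 38.8 and 34.8 CPM in the PBS libraries. All TPBC-PEG values lay below all PBS values. The means were 29.6 ± 0.407 CPM with TPBC-PEG and 36.9 ± 1.99 CPM with PBS (SD, n = 3 each). The log2 fold change was -0.32 ± 0.068 (SE; edgeR quasi-likelihood, adjusted p = 0.000198), a fall that only 9.06% of tested genes matched or exceeded. Of its exon length, 6.92% overlaps RAI1 on the other strand, and whether counting used strand is not stated. The gene has alternative first exons that encode different SREBP-1 forms, which counts per gene cannot separate.

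ACLY, the source of cytosolic acetyl-CoA (chromosome 17, 41866908 to 41930542, minus strand), had 259, 259 and 276 CPM in TPBC-PEG libraries, against 286, 294 and 292 CPM in PBS libraries. The groups did not overlap, and TPBC-PEG replicate 3 stood nearest to the PBS values. The log2 fold change was -0.135 ± 0.038 (SE; edgeR quasi-likelihood, adjusted p = 0.00388). The call was lost when libraries were scaled by their totals alone, at -0.091 (edgeR, adjusted p = 0.0517), and when the trend of fold change with expression level was removed, at -0.056 (edgeR, adjusted p = 0.275).

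FASN, the synthase itself (chromosome 17, 82078333 to 82098332, minus strand), had 206, 211 and 226 CPM in TPBC-PEG libraries, against 229.7, 243 and 221 CPM in PBS libraries. Here the groups overlapped, since TPBC-PEG replicate 3 lay above PBS replicate 3. The log2 fold change was -0.111 ± 0.041 (SE; edgeR quasi-likelihood, adjusted p = 0.0302). This call was weak: it was lost without TPBC-PEG replicate 1 (edgeR, adjusted p = 0.202), without TPBC-PEG replicate 2 (0.125) and without PBS replicate 2 (0.179). With the trend of fold change with GC content removed, the difference was -0.021 (edgeR, adjusted p = 0.742).

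ACACA, which commits acetyl-CoA to synthesis (chromosome 17, 37084988 to 37406818, minus strand), had 107, 109 and 109.99 CPM with TPBC-PEG, against 111, 112 and 112 CPM with PBS. The values did not overlap, but the gap was small against the spread the model expects, and the log2 difference of -0.041 ± 0.044 (SE) did not pass (edgeR, adjusted p = 0.515). Its sign turned when libraries were scaled by total alone, at 0.0026. Of the 10 genes, 7 had groups without overlap, 4 higher and 3 lower, against 43.4% of all genes tested (22.1% higher and 21.4% lower).

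SCD, the most abundant of the 10 by counts (chromosome 10, 100347124 to 100364834, plus strand), had 459, 459 and 451 CPM in TPBC-PEG libraries, against 387, 396 and 403 CPM in PBS libraries. The groups did not overlap. The means were 456.2 ± 4.32 CPM with TPBC-PEG and 395.4 ± 7.97 CPM with PBS (SD, n = 3 each), and the log2 fold change was 0.207 ± 0.036 (SE; edgeR quasi-likelihood, adjusted p = 7.26e-06). The processed pseudogene SCDP1 held at most 2 counts in a library. How reads that match both SCD and SCDP1 were counted is not known.

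FADS1 (chromosome 11, 61799625 to 61829318, minus strand), which makes arachidonic acid, had 169.9, 172 and 166 CPM in TPBC-PEG libraries, against 123, 121 and 128 CPM in PBS libraries. The 2 groups stood far apart for their spread. The means were 169.6 ± 2.98 CPM and 124.0 ± 3.74 CPM (TPBC-PEG and PBS; SD, n = 3 each). The log2 fold change of 0.45 ± 0.041 (SE; edgeR quasi-likelihood, adjusted p = 8.44e-13) was the largest among the 10, and 90.4% of tested genes had an equal or lower one.

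FADS2 (chromosome 11, 61792980 to 61867354, plus strand), which takes the first desaturation step on linoleic and alpha-linolenic acid, had 41.9, 42.1 and 43.0 CPM with TPBC-PEG, against 28.9, 33.9 and 31.3 CPM with PBS. Again no values overlapped, and the PBS libraries spread more widely than the TPBC-PEG libraries (SD 0.541 CPM in TPBC-PEG and 2.48 CPM in PBS). The log2 fold change was 0.43 ± 0.067 (SE; edgeR quasi-likelihood, adjusted p = 7.75e-07). Of FADS2's exon length 4.89% overlaps other genes, mostly FADS1, and without strand reads there could count for either gene.

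ELOVL6 (chromosome 4, 110045846 to 110199199, minus strand) had 88.5, 93.1 and 83.9 CPM in TPBC-PEG libraries, against 74.2, 72.4 and 71.8 CPM in PBS libraries. The groups did not overlap, although the TPBC-PEG libraries spread more, at an SD of 4.62 CPM, against 1.27 CPM in PBS. The log2 fold change was 0.28 ± 0.050 (SE; edgeR quasi-likelihood, adjusted p = 8.59e-06). The other elongase, ELOVL5 (chromosome 6, 53267398 to 53349179, minus strand), had 299.7, 295 and 281 CPM with TPBC-PEG, against 287, 284 and 288 CPM with PBS. These values overlapped, and the log2 difference of 0.029 ± 0.037 (SE) did not pass (edgeR, adjusted p = 0.606).

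ACSL3, the acyl-CoA synthetase (chromosome 2, 222860934 to 222944639, plus strand), had 131, 129.9 and 124 CPM in TPBC-PEG libraries, against 128, 132 and 126 CPM in PBS libraries. The groups overlapped. The log2 difference was -0.005 ± 0.042 (SE; edgeR, adjusted p = 0.939), the smallest of the 10 in size, and its sign turned under 5 of 18 other settings.

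**Figure D2:**
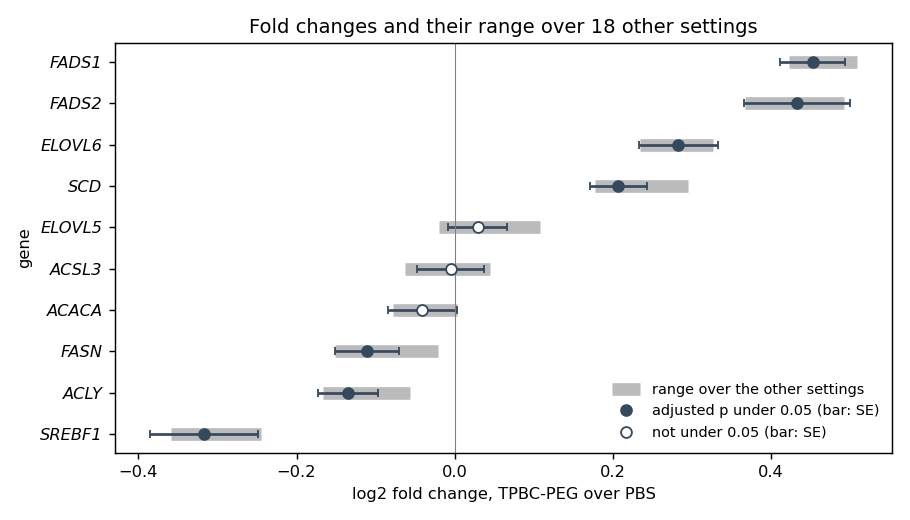
Log2 fold change of TPBC-PEG over PBS for each gene, ordered by size, with its standard error (bar) and the range over 18 other processing settings (grey). FADS1, FADS2, ELOVL6 and SCD stay above 0 and SREBF1, ACLY and FASN below 0 in every setting shown, while the grey ranges of ACACA, ELOVL5 and ACSL3 cross 0.

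Summed over the 10 genes, the level was 1790 ± 5.56 CPM with TPBC-PEG and 1710 ± 17.4 CPM with PBS (SD, n = 3 each), with no overlap. The sum gives most weight to abundant genes and does not mean a shared rise, since 4 of the 10 were called higher and 3 lower. To compare levels between genes, CPM were divided by the annotated exon length in kb, a length that joins all transcripts and so understates genes with long rare exons. With PBS the order was ELOVL5 at 75.1, SCD at 73.7, ACLY at 55.7, FASN at 24.7, ACSL3 at 17.8, FADS1 at 12.1, ELOVL6 at 9.98, ACACA at 8.59, SREBF1 at 4.59 and FADS2 at 2.84 CPM per kb. Only the first pair overlapped among neighbours in that order, with ELOVL5 between 74.6 and 75.4 and SCD between 72.2 and 75.2 CPM per kb. With TPBC-PEG, SCD stood alone at the top at 85.1 ± 0.806 CPM per kb, above ELOVL5 at 76.5 ± 2.53. FADS2, at 3.84 ± 0.0491 CPM per kb, stood above SREBF1, at 3.69 ± 0.0507 CPM per kb, with no overlap in TPBC-PEG libraries, whereas in PBS libraries SREBF1 stood above FADS2.

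**Figure D3:**
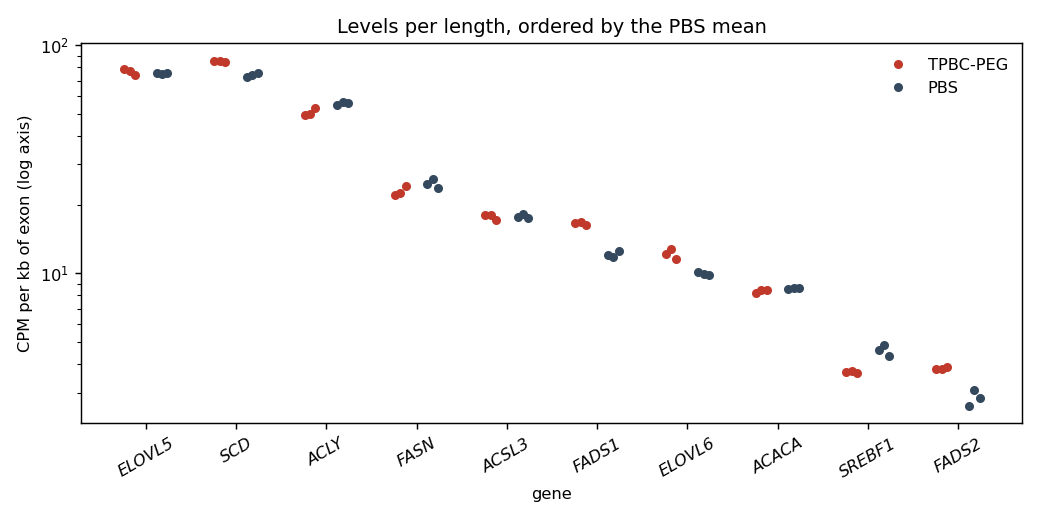
CPM per kb of annotated exon on a log axis for each library, with genes ordered by their PBS mean. SCD passes ELOVL5 and FADS2 passes SREBF1 in the TPBC-PEG libraries, and the remaining order is the same in both groups.

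Ratios of gene pairs within a library do not depend on how libraries are scaled, and 9 were computed per length, chosen after the fold changes were known. SCD to FASN was 3.89, 3.80 and 3.49 in TPBC-PEG libraries, against 2.94, 2.85 and 3.19 in PBS libraries. FADS1 to FASN was 0.756, 0.749 and 0.674 in TPBC-PEG libraries, against 0.489, 0.456 and 0.531 in PBS libraries. In both, the desaturase stood higher relative to the synthase in every TPBC-PEG library than in any PBS library. ELOVL6 to FASN averaged 0.532 ± 0.0484 with TPBC-PEG and 0.405 ± 0.0193 with PBS (SD, n = 3 each), again with no overlap. FADS1 to FADS2 was 4.32 ± 0.124 with TPBC-PEG and 4.28 ± 0.383 with PBS, and these overlapped, with a log2 difference of 0.016 (two-sided exact permutation p = 0.9). SREBF1 to SREBF2, the gene of the related factor that favours cholesterol genes, was 0.278 ± 0.0147 with TPBC-PEG and 0.415 ± 0.0227 with PBS. Of the 9 ratios, 8 did not overlap between groups, each with a two-sided exact permutation p of 0.1. This is the smallest that 3 against 3 can give, and it was 0.112 after Benjamini-Hochberg adjustment over the 9. Since most pairs set a gene already seen to rise against another that fell or did not pass, these counts and p-values are no separate evidence. The share of all gene pairs without overlap was not computed.

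**Figure D4:**
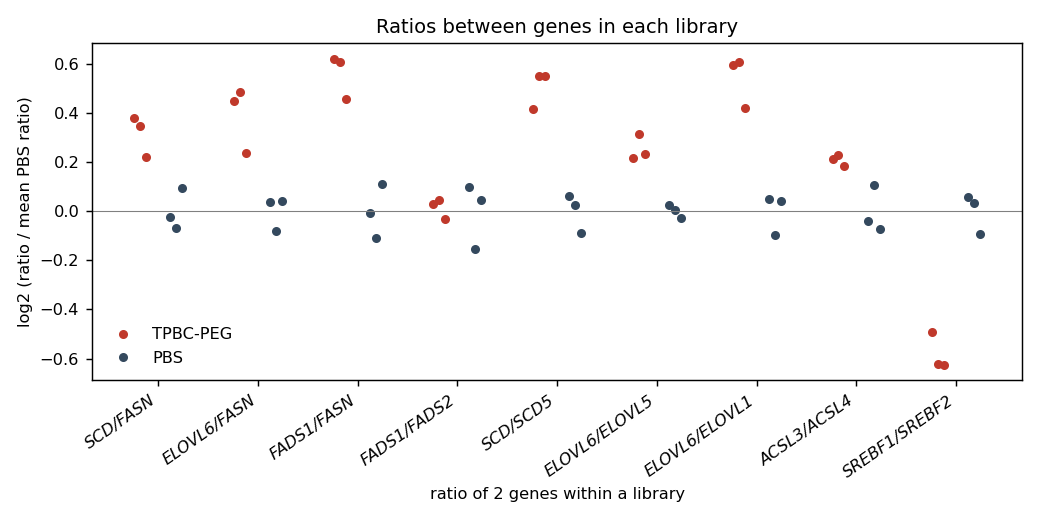
Each point is a library, as log2 of the ratio of 2 genes (counts per exon length) over the mean PBS ratio. The TPBC-PEG points lie above all PBS points for 7 ratios, below them for SREBF1/SREBF2 and among them for FADS1/FADS2.

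Paralogues outside the 10 genes included some that fell, 1 that was called higher and some that did not pass. SCD5, the other human stearoyl-CoA desaturase, fell, at 35 CPM with TPBC-PEG against 42.9 CPM with PBS (log2 fold change -0.29 ± 0.066 SE; edgeR quasi-likelihood, adjusted p = 0.000445). SCD to SCD5 per length was 9.85, 10.8 and 10.8 in TPBC-PEG libraries, against 7.71, 7.52 and 6.94 in PBS libraries. ELOVL1, which lengthens saturated very long chains, fell to 116.9 CPM in TPBC-PEG, against 140.4 CPM in PBS, and ELOVL2 fell by 0.383 on the log2 scale. ELOVL6 to ELOVL1 averaged 0.26 ± 0.0183 with TPBC-PEG and 0.179 ± 0.0103 with PBS. ACSL4, which prefers arachidonic acid, fell to 289.7 CPM in TPBC-PEG, against 336.5 CPM in PBS, while ACSL3 did not pass. ACSL1, ELOVL4 and ELOVL7 did not pass, at 0.001, -0.028 and -0.027 on the log2 scale. FADS3, the third gene of the FADS cluster, was called higher at 0.27 ± 0.11 (SE; edgeR, adjusted p = 0.0394). The FADS3 call was lost without TPBC-PEG replicate 1 or 2 (edgeR, adjusted p = 0.198 and 0.0572) and without PBS replicate 1 or 3 (0.106 and 0.167), and the ELOVL2 call without TPBC-PEG replicate 2 (0.0527) or PBS replicate 1 (0.0585).

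The rest of the pathway was followed with 9 lists holding 108 other genes, of which 93 were tested. Of these 93, 17 were higher (18.3%) and 25 lower (26.9%), beside the 16.2% and 16.9% of all genes tested. With library totals alone 16 of them were lower. Among 10 tested genes of SREBP processing and SREBF1 control, 4 rose and 2 fell, with a median log2 fold change of 0.052. INSIG1, which retains the SREBP complex in the endoplasmic reticulum and is itself an SREBP target, rose to 32.7 CPM in TPBC-PEG, against 17.6 CPM in PBS, a log2 fold change of 0.90 ± 0.077 (SE; edgeR, adjusted p = 1.56e-13). INSIG2 rose by 0.33 on the log2 scale, and LPIN1, a phosphatidate phosphatase, by 0.43. SREBF2, named because it enters a ratio above, rose to 100.4 CPM, against 83.6 CPM in PBS (edgeR, adjusted p = 1.77e-05), opposite in direction to SREBF1. SCAP, the SREBP escort, and MLX, partner of the glucose-sensing factors, fell, at -0.15 and -0.27. Without TPBC-PEG replicate 1 neither INSIG2 nor SCAP was called (edgeR, adjusted p = 0.0815 and 0.0628), and SCAP was also not called without TPBC-PEG replicate 2 (0.0523) or PBS replicate 2 (0.112).

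The list counts in this paragraph stand beside 16.2% higher and 16.9% lower over all genes tested. Among genes at or above the level of SREBF1 these shares were 20.0% and 31.9%. Around the synthesis steps, the genes that supply acetyl-CoA and NADPH went both ways, with 3 of 7 tested higher, 1 lower and a median of 0.03. The NADPH-forming enzymes IDH1, ME1 and PGD rose, at 0.405, 0.35 and 0.17, and ACO1, the cytosolic aconitase that also acts as an iron sensor, fell, at -0.35. Of 7 tested genes of other synthesis enzymes and regulators 2 fell, with a median of -0.099: MECR and MCAT, both of the separate mitochondrial synthesis pathway, at -0.35 and -0.28. ACACB, the second acetyl-CoA carboxylase, stood at 5.97 CPM with TPBC-PEG and 7.13 CPM with PBS and did not pass (edgeR, adjusted p = 0.167). Of 9 tested genes of elongation 1 rose, HSD17B12, the ketoacyl-CoA reductase of the cycle, at 0.19, and 3 fell, ELOVL1, ELOVL2 and TECR, the last reductase of the cycle, at -0.265; the median was -0.08. Of 8 tested desaturases and electron carriers 1 rose, FADS3, and 3 fell, with a median of -0.0055. CYB5A, the cytochrome that hands electrons to desaturases, fell to 20.6 CPM in TPBC-PEG, against 25.5 CPM in PBS, and CYB5R3, its reductase, fell by 0.163 on the log2 scale. MCAT was not called without TPBC-PEG replicate 1, TPBC-PEG replicate 2 or PBS replicate 2 (edgeR, adjusted p = 0.0978, 0.083 and 0.0943). HSD17B12 was not called without TPBC-PEG replicate 1 or PBS replicate 2 (edgeR, adjusted p = 0.0614 and 0.125), nor CYB5R3 without TPBC-PEG replicate 2 (0.0707).

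**Figure D5:**
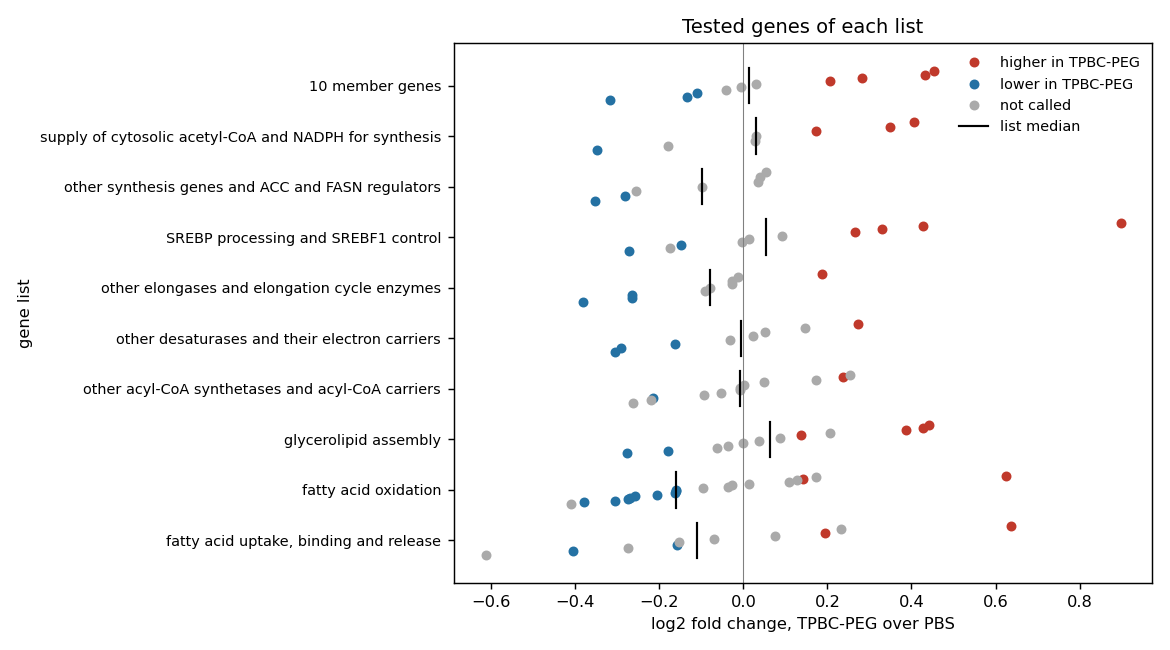
Log2 fold change of TPBC-PEG over PBS for each tested gene of the 10 members and of 9 other lists, coloured by call, with the list median as a black line. The lists hold calls in both directions except that of other synthesis genes, where the 2 called genes were lower, and INSIG1 at 0.90 is the highest point.

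Downstream, 4 of 12 tested glycerolipid assembly genes rose and 2 fell, with a median of 0.062. For this and the lists below, 16.2% of all genes tested were higher and 16.9% lower. Among genes at or above the level of SREBF1 these shares were 20.0% and 31.9%. GPAT3, an acyltransferase of the first step, rose to 34 CPM in TPBC-PEG, against 25.1 CPM in PBS. LPIN2 rose to 150.4 CPM, against 115.1 CPM in PBS. AGPAT1 and AGPAT2, of the second acylation, fell, at -0.18 and -0.28. AGPAT3, AGPAT4 and AGPAT5 did not pass, at 0.088, 0.206 and -0.001. Of AGPAT1's exon length 30.2% overlaps other genes. Among 12 tested acyl-CoA synthetases and carriers, ACBD3 rose by 0.237 and ACSL4 fell by 0.216 on the log2 scale, and the median was -0.0085. Of 10 tested genes of uptake, binding and release 2 rose and 2 fell, with a median of -0.11. PLIN2, the lipid droplet coat protein, rose to 192.1 CPM in TPBC-PEG, against 123.6 CPM in PBS (log2 fold change 0.64 ± 0.050 SE; edgeR, adjusted p = 2.7e-11). FABP5, a fatty acid binding protein, and PLIN3 fell, at -0.41 and -0.16. AGPAT1 was not called without TPBC-PEG replicate 1 (edgeR, adjusted p = 0.0535), nor AGPAT2 without TPBC-PEG replicate 1 or 3 or PBS replicate 2 (0.0692, 0.0753 and 0.214), and the log2 fold change of AGPAT2 was -0.175 without PBS replicate 2. PLIN3 was not called without TPBC-PEG replicate 1 or 2 or PBS replicate 1 or 2 (edgeR, adjusted p = 0.088, 0.0736, 0.0676 and 0.0796).

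Fatty acid oxidation, the opposite route, had 9 genes lower and 2 higher of 19 tested, with a median of -0.16. Of all genes tested 16.9% were lower, and 31.9% of those at or above the level of SREBF1, which lies at level percentile 61.6. The 9 lower genes lay at level percentiles from 50.3 (SLC25A20) to 86.2 (ACADM). ACADVL and HADHA, the most abundant of the list at 97.4 and 96.5, were not called. ACADM, the medium-chain acyl-CoA dehydrogenase, fell to 92 CPM in TPBC-PEG, against 113.8 CPM in PBS, and ECHS1, the enoyl-CoA hydratase, to 70.8 CPM, against 85.8 CPM in PBS. PPARD, a receptor that promotes oxidation, fell by 0.379 on the log2 scale. PPARA, a related receptor, rose to 15.9 CPM in TPBC-PEG, against 10.3 CPM in PBS (log2 fold change 0.625 ± 0.10 SE; edgeR, adjusted p = 2.77e-06). CPT1A, which controls entry of fatty acids into mitochondria and which malonyl-CoA inhibits, was called higher at 0.14 (edgeR, adjusted p = 0.0286). The CPT1A call was lost without TPBC-PEG replicate 2 or 3 (edgeR, adjusted p = 0.103 and 0.26) and without PBS replicate 1 or 2 (0.0995 and 0.125). Its log2 fold change was 0.082 without TPBC-PEG replicate 3 and between 0.112 and 0.133 without each of the others named.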

How the data were processed

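The counts, whole numbers of reads per Ensembl gene in 6 libraries, are as the authors deposited them. The submitters' processing notes name HISAT2 and the build GRCh38. Its version, the counter, annotation, strand setting and handling of multiply aligned reads were not given in the sources used here. Per the labels' protocols, RNA was isolated by Trizol.

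The deposited counts were tested with edgeR 4.0.16 in R 4.3.3. The filter was filterByExpr (minimum count 10, minimum total 15), libraries scaled by TMM, and TPBC-PEG compared with PBS by the robust quasi-likelihood test with the group as the only term. Benjamini-Hochberg adjustment ran over 15846 genes, and genes were called under 0.05. CPM are TMM-scaled. The common biological coefficient of variation was 4.19%. Whether reads carried molecular identifiers is not known here. Chi-square per degree of freedom between replicates was 2.19 to 4.04. Counting error alone therefore understates the spread between libraries, and no library copied another.

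Symbols came from a gene name table (42013 rows matched), coordinates and exon lengths from GENCODE release 29, and promoters from RefSeq. The 10 genes and all lists were chosen with earlier results of these data known. In each other list, the 3 called genes that changed most in each direction, among those of at least 1 CPM, were to be named. This gave 40 genes, of which 1 is not reported here, and SREBF2 was added after its values were seen. The code was tested on simulated data. Other settings were DESeq2 1.42.0, limma-voom (limma 3.58.1), 3 scalings, 2 filters, a replicate block and leaving out each library. Removing the trend of fold change on GC content, on exon length or on level (lowess, span 0.3) and testing protein-coding genes alone were added after the data were seen. Protein sequences and lipid levels were not analysed here.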

Additional observations from a re-analysis of the deposited data

How the results depend on the processing

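Under all 18 other settings SCD, FADS1, FADS2, ELOVL6 and SREBF1 kept their direction and their call. With library size alone 1 of the 10 genes was lower (SREBF1), ACLY was at -0.0913 and FASN at -0.068, both no longer called, ACACA turned to 0.00256 and ACSL3 to 0.0379, and 16 genes of the other lists were lower, against 25. With the expression-level trend removed 1 gene was lower, ACLY was at -0.0562 and FASN at -0.0397, not called, ACACA turned to 0.00254 and ACSL3 to 0.0451, and ELOVL5 passed as higher at 0.108 (edgeR, adjusted p = 0.0206). FASN was also not called with DESeq2 (-0.117, adjusted p = 0.0595) or with the GC trend removed (-0.0212), where ELOVL5 turned to -0.0192. ACSL3 turned to 0.00285 with protein-coding genes alone. Leaving out each library in turn, FASN ranged from -0.151 to -0.0764 and ACSL3 from -0.0233 to 0.0152. The cause of these shifts was not tested. The trend removals and the protein-coding setting were chosen after seeing the data. Of the 40 genes named from the lists, 29 kept their call under all 18 settings. With library size alone 3213 of all genes were higher and 1971 lower, against 2574 and 2682 with TMM.

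Same-numbered libraries did not deviate together: across genes the correlations of their deviations from the group means were 0.00336, 0.0646 and -0.0154 for replicates 1, 2 and 3. With the replicate block 7 of the 10 genes and 5175 of all genes were called, against 7 and 5256 without it. The precision of small changes is limited by 3 libraries a group, and FADS2 and SREBF1 had the fewest counts of the 10 genes.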

Other observations

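The FADS cluster sits among genes that moved both ways. Of the 10 other tested genes within 200000 bases of FADS1, 6 were higher, 1 lower and 3 not called. Without FADS2 and FADS3, which belong to the cluster, 4 of 8 were higher and 1 lower, against 16.2% higher and 16.9% lower of all genes tested. FTH1, the ferritin heavy chain, stood at 614 CPM with TPBC-PEG and 446 CPM with PBS (log2 fold change 0.46 ± 0.037 SE; edgeR, adjusted p = 2.24e-14), close in size to FADS1. FEN1, a replication nuclease whose span overlaps that of FADS2, fell to 87.8 CPM in TPBC-PEG, against 115 CPM in PBS. MYRF and DAGLA did not pass, at -0.205 and -0.11. RPLP0P2, a ribosomal protein pseudogene that can share reads with its parent, stood at 9.42 CPM with TPBC-PEG and 1.08 CPM with PBS. BEST1 stood at 1.53 CPM with TPBC-PEG and 0.274 CPM with PBS, and its span overlaps that of FTH1 on the other strand. These genes were looked at after the FADS values were known.

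The regulator and the synthesis genes SREBF1, ACLY, ACACA and FASN all lie on chromosome 17. Of 932 tested genes of that chromosome 117 were higher (12.6%) and 168 lower (18%), with a median log2 fold change of -0.017. Within the same distance, 2 of 22 tested genes around FASN were higher and 7 lower, and 3 of 14 around ACLY were higher and 6 lower. Around ACACA 1 of 6 was higher and the other 5 were not called, and around SREBF1 1 of 4 was lower and the other 3 were not called. Near FASN, PYCR1, of proline synthesis, and MAFG, a small MAF factor, were the higher ones, at 0.49 and 0.44.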
